A study of Mus musculus with 14 samples.

Results

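Skin of mice in which Nedd8 was to be deleted in keratinocytes was compared with skin of floxed mice without the recombinase, both under DMSO, across every gene of the count table. The comparison takes 6 of the 14 libraries of the study. The 3 knockout libraries carry the genotype NEDD8fl/fl, K14-CreERT pos, and the 3 Cre-negative libraries the genotype NEDD8fl/fl, K14-CreERT neg, so both groups share the floxed Nedd8 alleles. The recombinase is driven by the keratin 14 promoter, which is active in basal keratinocytes of the epidermis and its appendages, and it acts only after induction. The other cells of the skin keep Nedd8. Knockout mice were induced on 5 consecutive days before the start, with an agent that the labels do not name, and material was taken at day 7. No induction is given for Cre-negative mice, so the deletion and the inducing treatment cannot be told apart. Wild-type C57BL/6J skin under DMSO (2 libraries) is given beside the results as a further level and entered no test of its own. Age and dose are not stated, and no label says whether a library came from the back or the right ear. The series' design text describes an inhibitor experiment in wild-type mice, and the extraction text speaks of cells; the groups used here follow the genotype and treatment labels of the libraries.

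NEDD8 is a small protein related to ubiquitin. It is joined by an E1 and an E2 enzyme to a lysine of each cullin, the scaffold of the cullin-RING ubiquitin ligases, and this switches the ligase on. The COP9 signalosome removes it again. These ligases mark many short-lived proteins for the proteasome, among them the antioxidant transcription factor NRF2, the NF-kappaB inhibitor IkappaB-alpha, cyclin E and the clock proteins of the CRY and PER families. Changes in those proteins themselves are not visible in RNA counts.

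Total counts were 5552954, 9814586 and 34362477 in knockout replicates 1 to 3 and 15509178, 15437888 and 10839387 in Cre-negative replicates 1 to 3. Values are CPM (counts scaled to a common library size by TMM) and are listed in the order of the replicate numbers throughout. Knockout replicate 1 stood apart in quality: 17.5% of its counts were 18S ribosomal RNA, against 3.84% to 9.89% in the other 5 libraries, and 1.45% were mitochondrial, against 2.04% to 7.15%. By the reads of Xist and Y-linked genes all 3 knockout libraries were female, as were both wild-type DMSO libraries, while Cre-negative replicates 1 and 2 were male and replicate 3 female. Sex and genotype therefore overlap in these libraries. No group of the study but Cre-negative DMSO held both sexes. A sex term and a fit of only the female libraries of the compared groups therefore both rest on Cre-negative replicate 3. The tissue label was checked against markers: basal keratins, dermal matrix, sebaceous, skeletal muscle and adipocyte genes had reads in all 6 libraries.

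Of 56953 genes in the table, 16027 had enough counts to be tested with edgeR's quasi-likelihood test, and 2243 (14%) were higher and 2509 (15.7%) lower in knockout skin at an adjusted p under 0.05, 29.6% in all. These shares are the background for every count of list members below. The median log2 fold change was -0.06 over all genes tested, 1.57 among those higher and -1.99 among those lower. A change of more than 16-fold was found in 287 of the higher and 297 of the lower genes, and one of more than 64-fold in 113 of each. When libraries were scaled by size alone, the median of all genes shifted to -0.41 and the split became 1183 higher and 3378 lower. With a sex term 2243 of the 2243 higher genes and 2502 of the 2509 lower genes kept their direction, and 502 and 926 of them were still called. That fit called 3.15% of all genes higher and 5.88% lower. A gene written below as having risen or fallen kept its call in each of the 17 other settings that tested it, unless the paragraph names a setting that ended it. Calls given as ended by the sex term ended in the female libraries alone as well, and neither fit is a separate check of the other. Over all genes tested the 3 knockout and 3 Cre-negative libraries did not overlap in 48.3%, with knockout the higher in 21.8% and the lower in 26.5%. For each gene below that rose or fell, every knockout library lay on the same side of every Cre-negative library, Lcn2 excepted. The labels do not say that libraries came from separate animals, so p-values measure the spread between these samples.

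**Figure D1:**
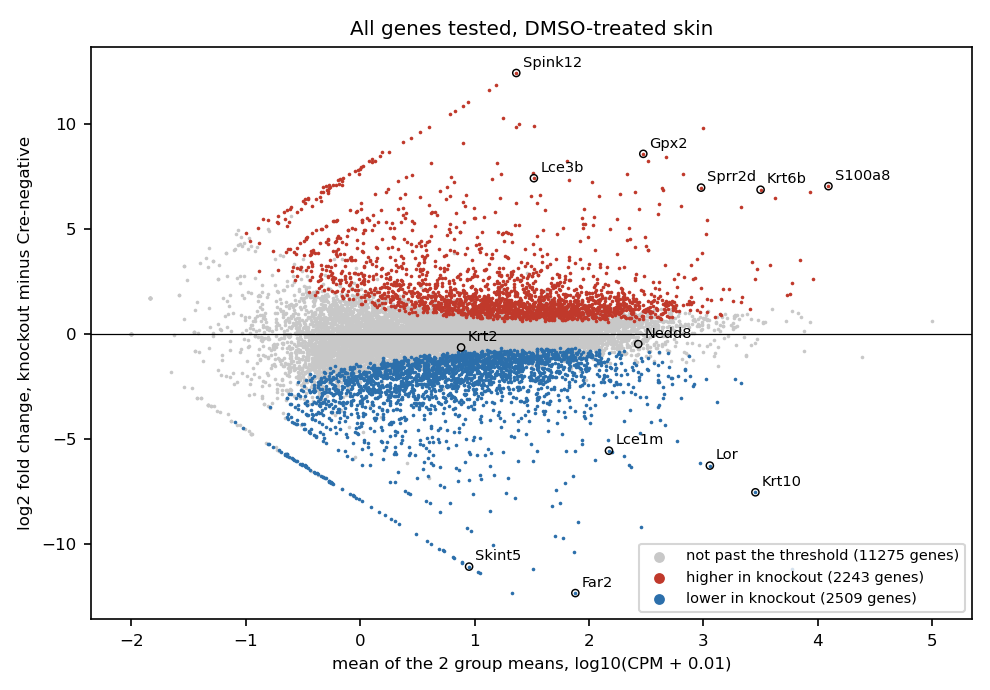
Log2 fold change (knockout minus Cre-negative) against mean abundance on a log10 scale for the 16027 genes tested, with 2243 higher genes in red, 2509 lower genes in blue and the rest grey. The straight diagonal edges are genes with no or almost no reads in 1 group, whose fitted fold change depends on the small prior count. Spink12 (12.44) and Far2 (-12.33) mark the extremes, and Nedd8 lies near 0.

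The targeted gene was read first. Nedd8 stood at 375, 158 and 147 CPM in knockout libraries, at 360, 290 and 291 CPM in Cre-negative libraries and at 203 and 270 CPM in wild-type libraries. In these TMM-scaled values knockout replicate 1 lay above all Cre-negative libraries and the other knockout libraries below them. The groups therefore overlapped at this scaling (log2 fold change -0.47 ± 0.40, adjusted p = 0.4). The TMM factor of knockout replicate 1 was 0.708, against 1.03 to 1.27 in the other compared libraries, and a lower factor gives a higher CPM. The overlap is thus not shown for other scalings. The exact two-sided permutation p over the 6 TMM-scaled values was 0.4, where the smallest possible is 0.1. Without knockout replicate 1 the fold change was -1.04 (adjusted p = 0.059). Scaling by library size gave -0.95 and an adjusted p of 0.037, and limma voom gave -0.84 and an adjusted p of 0.025. The libraries read a tag near the 3′ end, and no source used here places that tag relative to the floxed exons. The value therefore does not check the deletion.

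Of 13 tested genes of the NEDD8 cycle 5 were higher and none of them lower (median 0.18). Ube2m, the main E2 that loads NEDD8 onto cullins, was at 72.1, 71.4 and 89.7 CPM in knockout and at 29.2, 29.4 and 29.3 CPM in Cre-negative libraries (1.41 ± 0.25, adjusted p = 0.0013). Dcun1d5, a co-E3 that helps transfer NEDD8, was at 46.9, 49 and 29.6 CPM against 14.9, 16.3 and 21.5 CPM (1.25 ± 0.28), and its relatives Dcun1d3 and Dcun1d4 were also higher. Dcun1d1, another relative, was at 96, 93 and 102 against 145, 144 and 137 CPM, below every Cre-negative library (-0.55 ± 0.23, adjusted p = 0.085). No gene of this list was called with a sex term, library size alone called 1 higher and 2 lower, and voom called 5 higher and 2 lower. The 10 subunits of the COP9 signalosome had 1 called, Cops5, the catalytic subunit (1.01 ± 0.29), a call that ended with a sex term, with library size alone and without knockout replicate 1 or Cre-negative replicate 2 or 3. Among 14 cullins, adaptors and exchange factors Cul4b was the only higher and Cand2 the only lower gene called. Cand2 fell from 7.6, 9.85 and 6.63 CPM to 1.27, 2.43 and 2.71 CPM (-1.83 ± 0.34, not called in the female libraries alone), and the call of Cul4b (0.81 ± 0.28) ended with a sex term, with library size alone, with no filter on low counts and without any 1 of 5 libraries, knockout replicate 1 being the exception. Cul3, the scaffold of the ligase for NRF2, stood at -0.81 ± 0.30 (adjusted p = 0.059), and its adaptor Keap1 at 0.05 ± 0.23.

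Substrate receptors are the subunits that choose what a ligase binds. Of 62 tested 5 were higher and 7 lower (median -0.20), both below the shares of all genes (14% and 15.7%). Fbxo2, an F-box protein that binds glycoproteins, was at 50.7, 24.8 and 28.2 CPM against 1.45, 1.26 and 2.04 CPM (4.44 ± 0.40, adjusted p = 8.6e-06). Klhl24, a BTB receptor known for keratin 14 turnover, fell to 4.33, 11.6 and 6.23 CPM from 25.1, 27.9 and 32.8 CPM (-1.93 ± 0.41). Kctd17 (-1.71 ± 0.33) and Kbtbd11 (-2.14 ± 0.39) fell as well. Of 41 genes whose proteins are known substrates, 7 were higher and 10 lower. Ccne1, which encodes cyclin E1, rose from 1.84, 2.02 and 1.82 CPM to 9.42, 19.1 and 17.5 CPM (3.02 ± 0.39). Nfe2l2, which encodes NRF2, was at 165, 184 and 194 CPM against 63.9, 55.5 and 66.1 CPM (1.55 ± 0.27), a call that ended with a sex term. Falls were found for Irs1, the insulin receptor substrate (1.78, 3.3 and 3.02 against 22.8, 33.2 and 25.2 CPM, -3.27 ± 0.35), and for Pdcd4, a brake on translation (13.5, 27.6 and 21.6 against 188, 187 and 168 CPM, -3.11 ± 0.39). Nfkbia, for IkappaB-alpha, stood at -0.55 ± 0.33 and Cdkn1a, for p21, at -0.04 ± 0.29, neither past the threshold.

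Of 18 tested genes of glutathione synthesis and use 9 were higher, 2 lower and 7 did not pass, with a median log2 fold change of 1.85, and 7 of those higher were still called with a sex term. Slc7a11, the cystine importer, was at 233, 984 and 727 CPM in knockout libraries and at 1.17, 1.59 and 3.72 CPM in Cre-negative ones (8.24 ± 0.86, adjusted p = 2.4e-05). The catalytic and modifier subunits of glutamate-cysteine ligase, which takes the first step, followed: Gclc was at 345, 973 and 477 against 24.9, 25.4 and 21.9 CPM (4.63 ± 0.52). Gclm was at 316, 435 and 242 against 25.4, 23.6 and 22 CPM (3.81 ± 0.32). Gss, which completes the tripeptide, was at 225, 166 and 132 against 4.98, 4.82 and 4.01 CPM (5.24 ± 0.39). Esd, which frees glutathione from its formaldehyde adduct, rose by 3.99 ± 0.31. In each of these genes every knockout library lay above every Cre-negative library, and wild-type libraries lay near the Cre-negative ones (Gclc 22.9 and 42.5 CPM, Gss 6.32 and 9.06 CPM).

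Glutathione transferases, which couple glutathione to electrophiles, split by member: 8 of 21 were higher and 5 lower, with a median of 0.35. Gsto1, of the omega class, was at 1132, 1316 and 1294 CPM against 17.5, 20.6 and 16.1 CPM (6.11 ± 0.41), and Gstm1 and Gstm4 of the mu class rose by 2.83 ± 0.38 and 2.21 ± 0.30. Gstm5 (-1.84 ± 0.28) and Gstt3 (-2.54 ± 0.36) fell. Several of these genes have near-identical copies between which reads could be split.

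The thioredoxin, quinone and iron group held 12 higher and 1 lower of 23 (median 1.10). Prdx1, a peroxiredoxin, reached 5616, 8796 and 6236 CPM from 689, 736 and 681 CPM (3.29 ± 0.48), and Srxn1, which repairs overoxidised peroxiredoxin, was nearly the same in the 3 knockout libraries at 2057, 2077 and 2130 CPM against 49.8, 48.5 and 46.1 CPM (5.44 ± 0.35). Blvrb, biliverdin reductase B, rose by 2.91 ± 0.32 and Osgin1 by 2.54 ± 0.41. The member that fell was Txnip, the thioredoxin inhibitor, at 1.78, 21.5 and 14 against 48.9, 146 and 310 CPM (-3.72 ± 0.94). Txnrd1 (1.43 ± 0.31) and the heme oxygenase gene Hmox1 (1.10 ± 0.33) were higher in calls that ended with library size alone and with a sex term, that of Hmox1 also without knockout replicate 2 or any 1 Cre-negative library.

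The promoters of these redox genes were searched for the antioxidant response element TGACNNNGC on either strand, in windows from 250 bases before to 50 after the start (RefSeq, GRCm38.p6). It was present in 17.4% of 23 higher members with a window, 15.4% of all higher genes and 14.6% of all 11403 tested genes with a window, so the members' share lay close to the background. Prdx1 is shown as a member that rose and holds a match, given in capitals, on the reverse strand, at position -133 relative to the start. It lies at chr4:116685410-116685529, plus strand.
Prdx1: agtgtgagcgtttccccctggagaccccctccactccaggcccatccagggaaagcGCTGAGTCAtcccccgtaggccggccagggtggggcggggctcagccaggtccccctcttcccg

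NADPH feeds both systems. All 4 genes called among 11 were higher, and all 4 kept the call with a sex term. G6pdx, the entry enzyme of the pentose phosphate path, was at 34.4, 38.6 and 55.5 against 6.82, 8.97 and 5.39 CPM (2.60 ± 0.32). Pgd was at 807, 416 and 620 against 118, 157 and 126 CPM (2.20 ± 0.32). Taldo1 (2.13 ± 0.27) and Tkt (1.79 ± 0.25), of the branch that rearranges sugars, rose as well. Me1, malic enzyme, which makes NADPH for lipid synthesis, stood at -1.03 ± 0.42 (adjusted p = 0.077).

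Carbonyl, drug and retinoid enzymes moved in both directions, 14 higher and 11 lower of 46. Akr1b8, an aldo-keto reductase, was at 86.3, 168 and 87.2 against 3.08, 2.95 and 4.37 CPM (5.04 ± 0.41). Aldh1a3, which makes retinoic acid, was at 630, 298 and 693 against 5.09, 6.51 and 14.9 CPM (5.94 ± 0.71). Crabp2, which carries it, was at 242, 370 and 367 against 37.6, 35.7 and 35.2 CPM (3.17 ± 0.37). In both retinoid genes the knockout libraries were the higher ones. Aldh1a7 (-3.85 ± 0.48) and Sult5a1, a sulfotransferase (-5.27 ± 0.49), fell. Of 4 metal-binding metallothioneins 3 were higher and 1 lower, from -5.02 to 5.75. Mt3 rose from 0, 0.109 and 0.146 CPM to 7.64, 2.33 and 4.79 CPM (5.75 ± 0.82). Mt2 was at 2068, 2763 and 2359 against 639, 513 and 492 CPM (2.13 ± 0.39, not called in the female libraries alone).

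**Figure D2:**
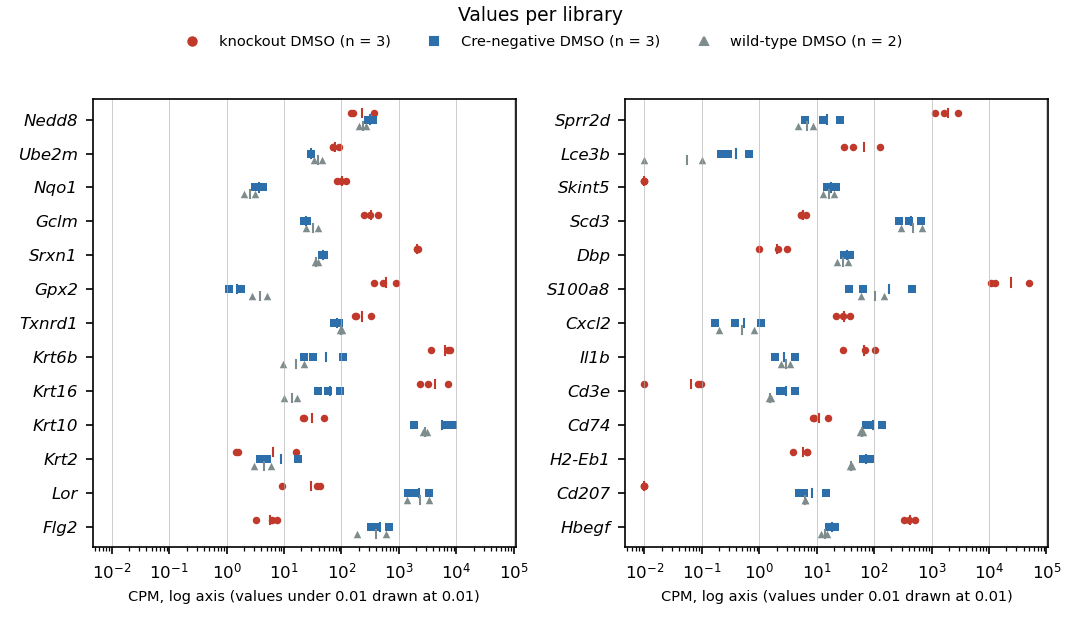
CPM of selected genes in each library on a log axis: knockout DMSO (red circles, 3 libraries), Cre-negative DMSO (blue squares, 3) and wild-type DMSO (grey triangles, 2), with a short bar at each group mean. Redox genes, wound keratins, Sprr2d, Hbegf and Il1b lie higher and Krt10, Lor, Flg2, Scd3, Dbp and Cd74 lower in all 3 knockout libraries than in any Cre-negative library, while Nedd8 and Krt2 overlap.

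Of 33 tested subunits of the constitutive proteasome 19 were higher, none of them lower and 14 did not pass, with a median of 1.0, and their summed level was 10452 to 17708 CPM in knockout and 6055 to 6762 CPM in Cre-negative libraries. Psmb5, a catalytic subunit, was at 142, 118 and 103 against 47.2, 41.3 and 43.6 CPM (1.46 ± 0.23, adjusted p = 6.0e-04, not called in the female libraries alone). Psmd14, the deubiquitinase of the lid, was at 140, 100 and 81.7 against 38.6, 39.5 and 48.9 CPM (1.34 ± 0.27, not called with a sex term). With a sex term 1 subunit was called higher, in the female libraries alone 0, and with library size alone 7. The interferon-induced counterparts went the other way. Of 14 immunoproteasome and MHC class I genes 5 were lower and none of them higher (median -1.14), and all 5 were called with a sex term. Psmb9, an immunoproteasome subunit, was at 7.9, 9.8 and 12.3 against 41.5, 53.8 and 90.4 CPM (-2.61 ± 0.40). B2m, the light chain of MHC class I, was at 116, 237 and 227 against 746, 749 and 848 CPM (-2.01 ± 0.38).

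In chaperones and amino acid supply the counts depended on the setting. The ATF4 list had 15 higher and 3 lower of 33, the list of endoplasmic reticulum chaperones 11 higher and 1 lower of 21, and cytosolic heat shock genes 7 higher of 15. With a sex term 3, 1 and 3 genes of these lists were called higher, in the female libraries alone 0, 0 and 2, and with library size alone 10, 3 and 3. Hsp90aa1, the inducible HSP90, was at 814, 963 and 1129 against 222, 204 and 175 CPM (2.27 ± 0.34). Hspa8 was at 685, 609 and 772 against 285, 250 and 205 CPM (1.48 ± 0.26). Asns, asparagine synthetase, was at 9.68, 16.3 and 12.3 against 2.46, 3.39 and 3.06 CPM (2.11 ± 0.32) and Psat1, of serine synthesis, rose by 1.64 ± 0.29, both not called in the female libraries alone. Hspa5, the endoplasmic reticulum HSP70, was at 5601, 2089 and 2476 against 1051, 1003 and 889 CPM (1.79 ± 0.44, not called with a sex term). Knockout replicate 1, the library with the most 18S RNA, was the highest for Hspa5. The p53 target list had 6 higher and 5 lower of 25 (median -0.07), with Sesn1 (-2.44 ± 0.33) and Trp53inp1 (-2.55 ± 0.32) among those that fell.

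Genes of ribosome assembly, DNA replication and mitosis were higher as groups, with no member called lower. Of 30 ribosome biogenesis genes 23 were higher (median 1.38). Nop56, of the box C/D particle, was at 96, 54.8 and 71.7 against 18.9, 16.5 and 18.3 CPM (2.05 ± 0.32), and Bysl rose from 16, 14.1 and 14.1 to 56.3, 38.8 and 49.1 CPM (1.70 ± 0.30), both not called in the female libraries alone. Of 31 replication genes 14 were higher (median 1.13), among them Rrm2, a ribonucleotide reductase subunit (45.3, 102 and 102 against 5.48, 8.81 and 10.3 CPM, 3.35 ± 0.46), and Mcm5, of the replicative helicase (117, 53.9 and 81.1 against 20.2, 26.2 and 23.1 CPM, 1.86 ± 0.38, not called with a sex term). Of 30 mitosis genes 18 were higher (median 1.88). Aurka, the spindle kinase, was at 37.4, 30.3 and 44 against 4.14, 4.92 and 5.46 CPM (2.94 ± 0.40). Cdc20, the activator of the anaphase complex, was at 34.6, 44 and 48.2 against 7.66, 8.54 and 5.9 CPM (2.52 ± 0.42). Mki67 was at 19.6, 42.4 and 82.9 against 20.1, 25.4 and 24.4 CPM and did not pass (adjusted p = 0.08). With a sex term 4, 1 and 3 members of these 3 lists were called, and with library size alone 13, 6 and 11. Inhibitors of the cycle leaned lower, 8 of 19 with none of them higher. Klf9, a factor of quiescent keratinocytes, was at 30.6, 86 and 43.5 against 232, 284 and 236 CPM (-2.23 ± 0.42, not called in the female libraries alone).

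The cell cycle homology region TTTGAA, a promoter element of genes active in mitosis, was found in 66.7% of 15 higher mitosis genes with a window and in 76% of all 25 with a window, against 15.8% of all higher genes and 12.7% of all tested genes. This describes the letters of the windows, not binding. The promoters shown belong to 3 higher members with a match, with the match in capitals (both strands searched) at positions 32, 13 and -29 relative to the start. They lie at chr2:172370521-172370640 (minus strand), chr4:124936868-124936987 (minus strand) and chr2:164769843-164769962 (plus strand, match on the reverse strand).
Aurka: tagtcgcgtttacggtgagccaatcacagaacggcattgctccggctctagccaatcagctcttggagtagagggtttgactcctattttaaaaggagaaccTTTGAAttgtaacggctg
Cdca8: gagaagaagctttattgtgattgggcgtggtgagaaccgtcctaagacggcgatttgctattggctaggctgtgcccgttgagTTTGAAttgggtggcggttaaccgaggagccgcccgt
Ube2c: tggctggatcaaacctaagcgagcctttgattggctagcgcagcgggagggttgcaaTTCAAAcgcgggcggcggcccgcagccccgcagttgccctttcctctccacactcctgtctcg
Cdca8, a subunit of the chromosomal passenger complex, was at 88.9, 74.8 and 106 against 16.3, 22.5 and 20.9 CPM (2.17 ± 0.34, not called in the female libraries alone). Ube2c, the E2 of the anaphase complex, was at 75.1, 78.7 and 114 against 14.8, 14 and 20.8 CPM (2.44 ± 0.41, not called with a sex term). In both genes the groups did not overlap.

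Genes of cholesterol synthesis were mostly higher. Of 28 genes 18 were higher and 2 lower (median 1.18), of which 3 higher genes were called with a sex term. Mvd, mevalonate decarboxylase, was at 541, 174 and 239 against 78.2, 82.8 and 50.9 CPM (2.17 ± 0.41). Idi1 was at 14.8, 22.7 and 18.2 against 8.05, 4.82 and 3.21 CPM (1.79 ± 0.40) and Nsdhl rose by 1.40 ± 0.28. In glycolysis 8 of 21 were higher and 2 lower. Pgam1 was at 40.5, 26.7 and 23.9 against 7.49, 7.28 and 7.21 CPM (2.04 ± 0.29). Pkm was at 388, 376 and 412 against 149, 169 and 124 CPM (1.41 ± 0.25, not called in the female libraries alone). Pfkm, the muscle form of phosphofructokinase, was lower (-2.08 ± 0.39, not called with a sex term). Of 56 respiratory chain subunits 1 was called, and it was lower: Cox7a1, a form of heart and skeletal muscle, at 24.7, 11.8 and 9.39 against 107, 64.7 and 41.3 CPM (-2.24 ± 0.56, not called with a sex term). The list's median was 0.34. Skeletal muscle markers moved with these muscle forms, with a summed level of 3581 to 5915 CPM against 13728 to 35279 CPM, and their part in those values was not tested.

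**Figure D3:**
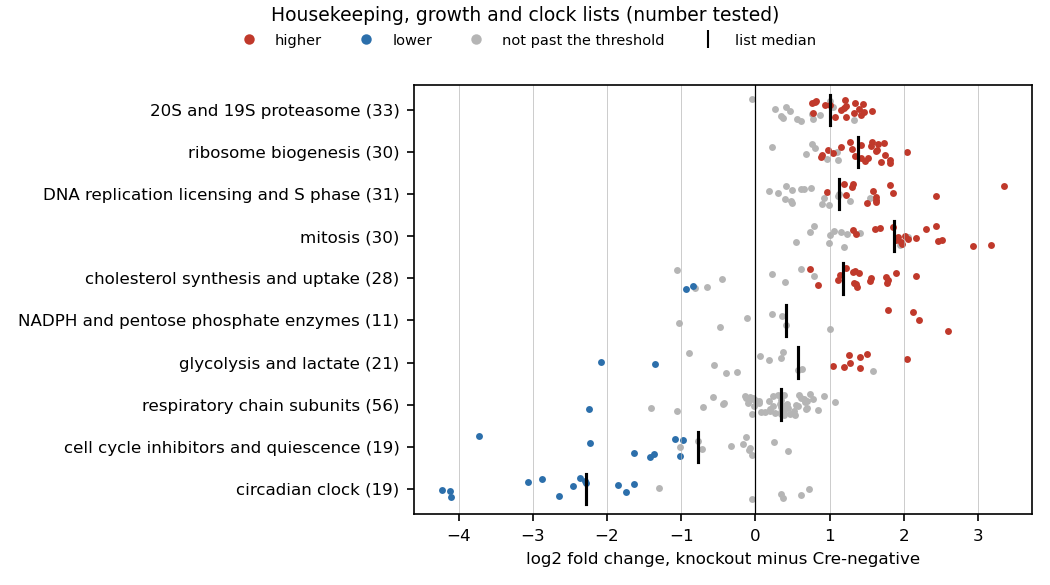
Log2 fold change of each tested member of 10 lists, with the number tested in brackets, 1 point per gene (red higher, blue lower, grey not past the threshold) and a black bar at the list median. Most ribosome biogenesis, mitosis, replication, cholesterol and proteasome genes lie to the right of 0, most respiratory chain subunits near 0 and most circadian clock genes to the left.

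Genes of the circadian clock were mostly lower: 13 of 19 were called lower and none of them higher (median -2.28), 10 of them also with a sex term. The output factors of the PAR bZIP family, Dbp, Hlf and Tef, fell. Dbp was at 3.06, 0.971 and 2.14 against 37.3, 35.2 and 29.9 CPM (-4.12 ± 0.47). Hlf was at 2.29, 5.92 and 7.13 against 79.7, 114 and 107 CPM (-4.22 ± 0.44). Tef was at 63.7, 49 and 58.4 against 330, 303 and 243 CPM (-2.36 ± 0.32). The repressors Bhlhe41 (-4.10 ± 0.47) and Nr1d2 (-1.85 ± 0.29) fell, and so did Per1 (-1.64 ± 0.26) and Cry2 (-1.74 ± 0.32), these last not called in the female libraries alone. Arntl and Clock, the activating pair of the oscillator, were looked up after these values were seen and stood at -0.04 ± 0.31 and 0.61 ± 0.31. Wild-type libraries were near the Cre-negative ones for Dbp (34.4 and 22.6 CPM) and Hlf (131 and 67.4 CPM). The hour of collection is not given in the labels, and its part in these values was not tested.

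The keratins of wounded and of resting epidermis moved in opposite directions. Among wound keratins 5 of 7 were higher and 1 lower (median 4.54). Krt6b was at 7802, 3686 and 7299 against 22.1, 32.2 and 105 CPM (6.88 ± 0.71), and Krt6a and Krt16 went with it. Krt18, a keratin of simple epithelia, was at 3.06, 3.3 and 2.62 against 0.112, 0.164 and 0.0729 CPM (4.54 ± 0.71). Among the suprabasal keratins of resting epidermis 4 of 6 were lower and none of them higher. Krt77, a partner of Krt10 in mouse suprabasal cells, was at 3.57, 10.9 and 0.987 against 9128, 16010 and 10616 CPM (-11.19 ± 0.96). The summed level of this list was 440 to 712 CPM against 12462 to 24999 CPM. Krt1, the usual partner of Krt10, was at 323, 151 and 319 against 1125, 1967 and 1079 CPM (-2.39 ± 0.58, not called with a sex term). Krt80 stood at -0.15 ± 0.32 and Krt2 at -0.63 ± 0.97.

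The basal compartment showed both directions: 11 of 24 were higher and 3 lower (median 0.87). Krt14, whose promoter drives the recombinase, was at 17633, 12203 and 16801 against 2316, 3103 and 1997 CPM (2.65 ± 0.37), while its partner Krt5 was at 862, 1815 and 2381 against 794, 1141 and 943 CPM (0.81 ± 0.43, adjusted p = 0.17). Krt15, a keratin of resting basal and bulge cells, fell from 1941, 2016 and 1574 to 17.3, 29.8 and 31 CPM (-6.13 ± 0.40). The collagen-binding integrin chain Itga2 rose by 1.77 ± 0.30, and the calls of Itga3 (2.58 ± 0.49) and Itgb1 (1.82 ± 0.29) ended in the female libraries alone.

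The epidermal differentiation complex, a gene cluster on chromosome 3 that holds most cornified envelope genes, held neighbouring groups called in opposite directions. Between S100a1 and S100a11 (90418341 to 93433594 on GRCm39) 59 genes were tested, of which 24 (40.7%) were higher and 17 (28.8%) lower. Part of the called genes lay in this order along the chromosome. S100a7a, S100a8 and S100a9 were higher, S100a7l2 and Lor lower and 8 of 9 Sprr2 genes higher. Then followed Lce6a lower, 12 of 14 Lce1 genes lower, all 6 Lce3 genes higher, Flg2 and Hrnr lower and Rptn higher. Some other S100 and Sprr genes of the region were also past the threshold as higher and are left out of this order. S100a7l2 had 0 counts in knockout libraries and 37.5, 8.97 and 0.364 CPM in Cre-negative ones. Its call ended with a sex term, and it was not tested in 6 other settings, the female libraries alone among them. The call of Hrnr ended with a sex term and that of Rptn in the female libraries alone. The 14 Lce1 genes summed to 233 to 1026 CPM in knockout and 3744 to 4294 CPM in Cre-negative libraries, and the 6 Lce3 genes to 751 to 2658 CPM against 40.5 to 61.3 CPM. Lce3 and Lce1 lie next to each other: Lce3a to Lce3f span 92832594 to 92900733, between Lce1l and Lce1m. These families hold near-identical copies, so counts of single members are less certain than the sums.

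Within this cluster the values ran as follows. Lce1j was at 4.33, 1.26 and 2.76 against 109, 134 and 129 CPM (-5.55 ± 0.62). Lce3b was at 125, 29.3 and 42.3 against 0.28, 0.219 and 0.656 CPM (7.43 ± 0.74). Lor, for loricrin, the most abundant envelope protein of resting epidermis, was at 41.5, 9.22 and 37.2 against 2017, 3289 and 1434 CPM (-6.26 ± 0.85), while Sprr2d, of the small proline-rich proteins that can take its place as cross-bridges, was at 2927, 1135 and 1619 against 6.32, 13 and 25.6 CPM (6.98 ± 0.70). Flg2 fell to 6.11, 3.3 and 7.61 from 400, 660 and 331 CPM (-6.34 ± 0.66), but Flg, for filaggrin, was at 191, 232 and 759 against 774, 1162 and 748 CPM (-1.18 ± 0.77, adjusted p = 0.27). Ivl, for involucrin, stood at -0.28 ± 0.33 and did not pass. The wider list of envelope proteins had 7 higher and 5 lower of 30, with a median of -0.05.

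**Figure D4:**
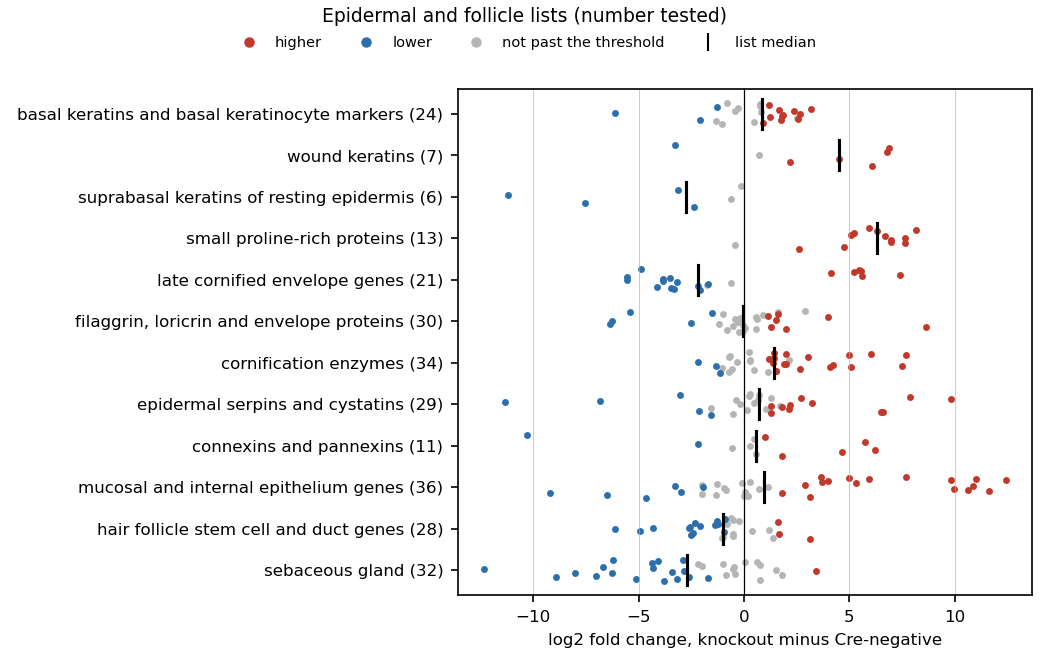
Log2 fold change of each tested member of 12 epidermal and follicle lists, with the number tested in brackets, 1 point per gene (red higher, blue lower, grey not past the threshold) and a black bar at the list median. Most small proline-rich proteins lie to the right, the late cornified envelope genes split into a lower and a higher cluster, and most sebaceous gland genes lie to the left.

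The enzymes that build and shed the horny layer were higher rather than lower, 18 of 34 with 3 lower (median 1.42). Secreted serine proteases were among them. Of 10 kallikreins from Klk4 to Klk14, 8 were higher and 1 lower. Klk6 was at 984, 317 and 507 against 26.9, 32.7 and 37.2 CPM (4.22 ± 0.43). Klk13 was at 194, 85.4 and 238 against 4.86, 3.56 and 6.85 CPM (5.08 ± 0.46) and Klk12 rose by 4.09 ± 0.51. Klk7, a main desquamation protease, was at 16920, 4088 and 6017 against 2398, 2118 and 2748 CPM (1.90 ± 0.55), a call that ended without knockout replicate 1, with a sex term and without any 1 Cre-negative library. Tmprss11b, a membrane protease of oral and oesophageal epithelium, was at 94.5, 37.5 and 62.8 against 0.112, 0.383 and 0.437 CPM (7.69 ± 0.88). Tgm3, a crosslinking enzyme, was at 52.2, 76.8 and 73 against 5.59, 10.6 and 8.09 CPM (3.06 ± 0.47).

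Protease inhibitors changed by member, 11 higher and 5 lower of 29. Slpi was at 2589, 1833 and 1506 against 1.34, 1.48 and 3.72 CPM (9.84 ± 0.53). Csta3, a stefin, was at 163, 331 and 228 against 0.559, 0.766 and 6.34 CPM (6.59 ± 0.92). Serpinb7 fell to 0, 0.485 and 0.338 from 39.1, 39.5 and 38.4 CPM (-6.83 ± 0.68). Serpinb6d had 0 counts in the knockout libraries and 1123 in the Cre-negative ones, at least 358-fold lower.

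Barrier lipid enzymes were divided in the same way, 9 higher and 10 lower of 38 (median -0.10). Alox12e, a lipoxygenase, was at 0, 0.194 and 0.0846 against 104, 150 and 194 CPM (-10.39 ± 1.24). Fa2h, which puts a hydroxyl group on fatty acids, was at 0.764, 0.0971 and 0.0282 against 109, 123 and 70.1 CPM (-9.61 ± 1.23). Cers4, a ceramide synthase, was at 5.6, 9.32 and 4.17 against 370, 372 and 194 CPM (-5.62 ± 0.51). Cers3, the synthase of the ultra-long ceramides of the barrier, rose instead, to 319, 202 and 209 from 51.4, 43.6 and 47.7 CPM (2.36 ± 0.31), and Abca12, their transporter, stood at 0.51 ± 0.49. Fa2h is also a gene of sebocytes, whose genes are given below, and the part of sebaceous RNA in these values was not tested.

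Junction genes were called in both directions. Among desmosomal genes Dsc2 rose from 7.16, 8.43 and 12.1 to 257, 270 and 357 CPM (5.00 ± 0.50) and Dsg1a fell from 519, 634 and 510 to 63.4, 54.1 and 91.8 CPM (-2.99 ± 0.39). The desmosome list had 2 higher and 2 lower of 13, close to the shares of all genes (14% and 15.7%). Among 11 connexins and pannexins 5 were higher and 2 lower. Gjb6, connexin 30, was at 1208, 545 and 602 against 13.1, 11.3 and 19.5 CPM (5.74 ± 0.69), and Gjb2, connexin 26, its usual partner, at 357, 992 and 1071 against 6.09, 7.77 and 18.7 CPM (6.22 ± 0.94, not called in the female libraries alone). Panx3 had 0 counts against 542, at least 173-fold lower. Of 26 tight and adherens junction genes 8 were lower and 4 higher, with a median of 0.03. Tjp3 fell to 0.255, 0.388 and 1.13 from 9.28, 9.36 and 11.3 CPM (-3.76 ± 0.47), Cldn23 fell by 2.80 on the log2 scale, and Cldn1, the claudin whose loss opens the epidermal barrier, was at 248, 315 and 311 against 519, 505 and 541 CPM (-0.84 ± 0.27), a call that ended with a sex term, with no filter on low counts and without any 1 of the 6 libraries.

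Of 57 transcription factors of the epidermis 11 were lower and 7 higher (median -0.22), against 15.7% and 14% of all genes. Gata3, which drives epidermal and lipid differentiation, was at 415, 227 and 268 against 1142, 1408 and 1122 CPM (-2.01 ± 0.29). Gata6 was at 0.255, 1.46 and 0.366 against 21.8, 20.6 and 22.4 CPM (-4.93 ± 0.59). Bach2 was at 0.764, 2.14 and 1.16 against 10.6, 11.7 and 8.74 CPM (-2.88 ± 0.38). Sox6 (-2.24 ± 0.36) fell as well. Ppard, a receptor raised in wounds, was at 64.7, 138 and 142 against 19, 18.4 and 20.2 CPM (2.59 ± 0.44, not called in the female libraries alone), while Pparg, the receptor of fat and sebaceous cells, fell to 0, 0.194 and 0.0564 from 1.96, 2.41 and 1.38 CPM (-4.36 ± 0.74).

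Genes usual in mucosal and internal epithelia included Spink12, the largest fitted rise of all genes tested. Of 58 listed 36 had enough reads to be tested, 17 higher and 6 lower. Among those tested 5 had 0 counts in the lower group. Members were chosen with earlier results of these data known, so these counts describe the list and do not test it. Spink12, a protease inhibitor, was at 49.4, 33.6 and 55.9 CPM with 0 counts in all Cre-negative libraries, at least 770-fold higher. Krt76, a keratin of palate and gingiva, was at 24.2, 12.8 and 10.1 CPM against 0 counts, at least 261-fold higher. Glyat, glycine acyltransferase of liver and kidney, had 1825 counts against 2, a ratio of 1229 (95% interval 340 to 10152, counting error only). Rptn, repetin, reached 215, 139 and 282 CPM from 8.39, 13.5 and 17.5 CPM (4.01 ± 0.64, not called in the female libraries alone). Clca3a2 moved the other way, from 410, 527 and 764 to 0, 1.26 and 1.13 CPM (-9.19 ± 0.86). Krt4, a defining keratin of oesophagus and mouth, was at 37.7, 4.85 and 3.69 against 7.44, 5.96 and 6.48 CPM and did not pass.

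Sebaceous gland genes were mostly lower, 18 of 32 with 1 higher (median -2.72), and 13 of the 18 were called with a sex term. Scd3, a sebocyte desaturase, was at 5.35, 5.34 and 6.57 against 397, 648 and 267 CPM (-6.23 ± 0.57). Scd1 was at 47.9, 41.5 and 50.6 against 1032, 825 and 516 CPM (-4.08 ± 0.38). Awat1, a wax ester enzyme, was at 0, 0.485 and 0.31 against 215, 190 and 77.1 CPM (-8.94 ± 0.85). Mgll, monoglyceride lipase, fell from 1508, 1287 and 603 to 38, 36.8 and 25.1 CPM (-5.09 ± 0.47), among the 12 largest losses of mean CPM in the whole comparison. The member that rose was Fabp5, a fatty acid carrier also of inflamed epidermis, at 5409, 3097 and 5953 against 370, 480 and 492 CPM (3.43 ± 0.43). With Fabp5 included the summed level of the list was 4113 to 6968 CPM in knockout and 4060 to 5741 CPM in Cre-negative libraries. In whole skin, fewer cells of a type and less RNA per cell cannot be told apart, here or in the cell type lists below.

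Follicle stem cell and duct genes fell in 14 of 28 with 3 higher. Lgr6, a receptor of the upper follicle, was at 1.27, 1.65 and 2.56 against 10.7, 11.9 and 11.7 CPM (-2.55 ± 0.44), and Krt79 fell from 678, 897 and 1052 to 47.4, 28.8 and 55.7 CPM (-4.31 ± 0.45). Hair shaft genes had 1 higher and 4 lower of 30, and their summed level was 200 to 307 CPM in knockout, 927 to 1122 CPM in Cre-negative, and 941 and 12357 CPM in the wild-type libraries. Krt32 fell to 0.255, 0.0971 and 0.282 from 23.7, 15.8 and 9.18 CPM (-6.10 ± 1.12).

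Wnt genes leaned lower, 12 of 41 with 5 higher (median -0.69). Wnt3 was at 4.84, 4.46 and 3.41 against 106, 136 and 96.5 CPM (-4.76 ± 0.35). Wnt7b was at 21.1, 5.53 and 14.3 against 120, 150 and 88.5 CPM (-3.15 ± 0.50) and Wnt16 at a total of 1 count against 263, a ratio of 258 (95% interval 46.3 to 10182). Sostdc1, a secreted modulator of Wnt and BMP, was at 1.53, 1.65 and 2.4 against 40.8, 50.7 and 45.2 CPM (-4.55 ± 0.32). The target Axin2 stood at -1.58 ± 0.57 (adjusted p = 0.053). Bmp4 (-2.96 ± 0.49) and Id4 (-3.48 ± 0.66) fell, while the BMP and TGF-beta list as a whole had 6 higher and 6 lower of 34. Notch genes had few calls, 1 higher and 2 lower of 18, and YAP targets in 3 higher and 1 lower of 20.

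Genes of the EGF family were mostly higher. Of 11 ligands and receptors 7 were higher and 1 lower (median 1.65), and 5 of the 7 were called with a sex term. Hbegf was at 400, 505 and 336 against 16.4, 17.7 and 20.7 CPM (4.50 ± 0.34). Areg, amphiregulin, was at 80.5, 203 and 86.7 against 8.95, 9.79 and 9.76 CPM (3.70 ± 0.40). Epgn, epigen, was at 59.3, 249 and 169 against 6.65, 8.81 and 6.56 CPM (4.44 ± 0.64) and Nrg1, neuregulin 1, at 19.6, 27.5 and 20.5 against 0.895, 0.766 and 0.656 CPM (4.85 ± 0.34). Tgfa (2.48 ± 0.45) was higher in a call that ended with a sex term. Transcripts that follow ERK signalling were higher in 10 of 34 with 2 lower. Phlda1 was at 311, 580 and 431 against 17.7, 15.6 and 24.3 CPM (4.52 ± 0.38), Fosl1, a subunit of AP-1, at 23.4, 38.9 and 24.9 against 4.03, 4.92 and 2.19 CPM (2.96 ± 0.38), and Ier3 and Etv4 rose by 2.48 ± 0.31 and 2.71 ± 0.44. Fgf3, an embryonic fibroblast growth factor outside all lists, had 2602 counts (125, 17.8 and 54.3 CPM) against 3, a ratio of 1093 (95% interval 374 to 5300).

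Cytokine genes moved in both directions. The IL-1 list had 3 higher and 2 lower of 17, near the shares of all genes (14% and 15.7%). Within it Il1b was at 68.8, 29 and 103 against 1.9, 1.86 and 4.15 CPM (4.68 ± 0.49). Il33, an alarmin of epithelial nuclei, was at 193, 98.9 and 255 against 18.6, 16.6 and 18.4 CPM (3.35 ± 0.36), but Il1a stood at 0.44 ± 0.64. In the IL-17 and IL-20 axis 5 were higher and 7 lower of 26. Il19 was at 57.6, 20.9 and 21.2 against 0.112, 0.164 and 0.874 CPM (6.49 ± 0.73). Il24 was at 20.9, 54.4 and 17.2 CPM against 0 counts, at least 513-fold higher. Their shared receptor chain Il20rb fell, to 36.2, 22.1 and 40.3 from 262, 234 and 227 CPM (-2.87 ± 0.27), as did Il22ra2, a decoy for IL-22 (-4.93 ± 0.71), and Il6ra (-2.72 ± 0.36). Il17a had 1 count in the 3 knockout libraries together and 0 in the Cre-negative ones, and Tnf stood at 0.07 ± 0.53.

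Among NF-kappaB feedback genes 5 were higher and 7 lower of 32, against 14% and 15.7% of all genes. Bcl3, a nuclear cofactor of NF-kappaB, was at 101, 193 and 170 against 15.4, 15.2 and 21.8 CPM (3.15 ± 0.34). Interferon response genes were called in 2 higher and 5 lower of 34 (median -0.50), and voom called 2 higher and 12 lower. Irf9, a subunit of the interferon-activated ISGF3 factor, was at 15.5, 10.6 and 14 against 36.6, 32.6 and 36.9 CPM (-1.41 ± 0.31, not called with a sex term). Ifitm1, of those higher, was at 20.1, 13.3 and 7.16 against 0.447, 0.383 and 0.291 CPM (5.10 ± 0.46). In the prostaglandin and phospholipase list 5 were higher and 8 lower of 28. Ptgs2, cyclooxygenase 2, was at 14.5, 146 and 49.5 against 0.671, 0.438 and 1.75 CPM (6.24 ± 0.83). Pla2g4e, a phospholipase, was at 60.9, 84 and 86.5 against 9.11, 7.88 and 8.01 CPM (3.21 ± 0.40), whereas the prostaglandin receptor Ptger3 (-2.37 ± 0.44) and the phospholipase Plaat3 (-2.68 ± 0.32) fell.

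Antimicrobial proteins were higher in 14 of 27 with 5 lower (median 1.72). Defb4, a beta-defensin, had 1976 counts (65.7, 34.3 and 38.5 CPM) against 2, a ratio of 1151 (95% interval 319 to 9505), and Defb14 was at 90.4, 242 and 206 against 2.52, 2.35 and 3.72 CPM (5.97 ± 0.71). Defb6, a defensin of resting skin, fell from 353, 378 and 543 to 27.8, 51.6 and 24.9 CPM (-3.61 ± 0.44). Duoxa1, the partner of a hydrogen peroxide-making oxidase, rose by 3.82 ± 0.29. Lcn2 was at 1.27, 14.8 and 2.11 against 0.727, 0.383 and 1.46 CPM (2.88 ± 0.83), a value that rests on knockout replicate 2 and was not called without it, with the replicate block, with a sex term or without Cre-negative replicate 1 or 2. With the block its fold change was 2.20 (adjusted p = 0.064). S100a8 was at 49785, 12884 and 11013 against 37.1, 65 and 452 CPM (7.05 ± 1.15).

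Neutrophil chemokines and growth factors were higher in 9 of 14 with 1 lower (median 3.20, or 2.66 with genes at 0 counts set to their bound). Cxcl2 was at 28.5, 21.5 and 38.3 against 0.168, 0.383 and 1.09 CPM (5.80 ± 0.60), and Cxcl5 had 1392 counts against 1. Neutrophil markers were higher as well: 15 of 22 neutrophil genes were higher and 1 lower (median 3.53, or 3.38 when bounds replace fits against 0 counts). Clec4d was at 4.58, 5.05 and 3.72 against 0.112, 0.109 and 0.0729 CPM (5.35 ± 0.62). Hdc, histidine decarboxylase, was at 38.5, 36.4 and 32.8 against 3.02, 2.24 and 3.21 CPM (3.67 ± 0.37). Ly6g, the antigen that defines mouse neutrophils, had 56 counts against 0 (not called in the female libraries alone), whereas the granule genes Camp, Ngp and Ltf had 7, 6 and 1 counts in knockout libraries and 1, 6 and 5 in Cre-negative ones; these 4 were chosen after their values were seen. Keratinocytes also express S100a8, S100a9 and Slpi, and how much of their counts came from neutrophils was not tested.

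Genes of antigen presentation through MHC class II were lower. Of 13 genes 9 were lower and none of them higher (median -3.17), 8 of them also with a sex term. Ciita, the master switch of this gene set, was at 0.764, 0.582 and 0.902 against 13.1, 13.2 and 19.1 CPM (-4.28 ± 0.38). H2-Ab1 was at 10.4, 6.11 and 7.36 against 86.3, 85.9 and 124 CPM (-3.65 ± 0.37) and the invariant chain Cd74 at 16, 8.83 and 8.62 against 78.8, 73.3 and 139 CPM (-3.15 ± 0.40). Wild-type libraries lay between, at 73.5 and 63.4 CPM for H2-Ab1. The Y box CTGATTGG, an element of MHC class II promoters, was searched on either strand. It was found in 33.3% of 6 lower members with a window and in 22.2% of all 9 tested members with a window. Both shares rest on the same 2 genes. Among all lower genes the share was 5.25% and among all tested genes 5.74%. The pair that holds it is shown with the match in capitals, at positions -62 and -51 relative to the start, at chr17:34305749-34305868 (plus strand) and chr17:34287811-34287930 (minus strand).
H2-Eb1: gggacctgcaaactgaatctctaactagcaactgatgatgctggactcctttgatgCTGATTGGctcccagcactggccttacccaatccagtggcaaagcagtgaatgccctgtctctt
H2-Aa: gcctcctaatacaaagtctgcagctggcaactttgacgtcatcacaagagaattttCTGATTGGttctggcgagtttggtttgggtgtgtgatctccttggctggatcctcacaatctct
Of these genes H2-Eb1 was at 6.88, 6.7 and 3.81 against 64.9, 68.4 and 85 CPM (-3.68 ± 0.33). H2-Aa was at 4.58, 6.6 and 5.19 against 55.7, 75.1 and 95.9 CPM (-3.78 ± 0.39).

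Markers of Langerhans, dendritic and T cells were lower. Of 17 Langerhans and dendritic cell genes 12 were lower and 1 higher (median -2.12). Cd207, langerin, which defines Langerhans cells, had 0 counts in knockout libraries and 6.04, 4.92 and 14.2 CPM in Cre-negative ones, at least 139-fold lower. Itgax (-2.13 ± 0.45), Irf4 (-2.76 ± 0.51) and Cd86 (-2.39 ± 0.60) fell. The summed level of the list was 228 to 264 CPM against 447 to 572 CPM. Of 28 T and NK cell genes 16 were lower and 1 higher (median -2.75), with 13 of the 16 called with a sex term. Cd3e was at 0, 0.0971 and 0.0846 against 4.19, 2.35 and 2.33 CPM (-5.09 ± 0.86). Il2rb was at 0.509, 1.55 and 1.97 against 11.2, 10.1 and 12 CPM (-2.88 ± 0.49), and Cd7 fell by 2.75 on the log2 scale. The T cell receptor constant genes did not all follow: looked up after the values were seen, Trgc1 was at -4.02 (not called with a sex term) but Trdc at 0.93 and Trbc2 at 0.64, neither of these last past the threshold.

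Skint genes, a keratinocyte family of which Skint1 is needed for the development of epidermal gamma-delta T cells, were lower too. All 10 tested members were lower, from -11.07 to -2.33, and their summed level was 11.5 to 18.6 CPM in knockout, 271 to 522 CPM in Cre-negative and 210 to 328 CPM in wild-type libraries. Skint3 was at 9.17, 8.54 and 15.9 against 108, 134 and 271 CPM (-3.91 ± 0.44), and Skint10 had 1 count against 851. The copies are close to each other in sequence, and the sum is the firmer value. Slurp1, a secreted Ly6 protein of keratinocytes, fell from 21.7, 28.3 and 18 to 0.509, 0.194 and 0.113 CPM (-6.91 ± 0.54).

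**Figure D5:**
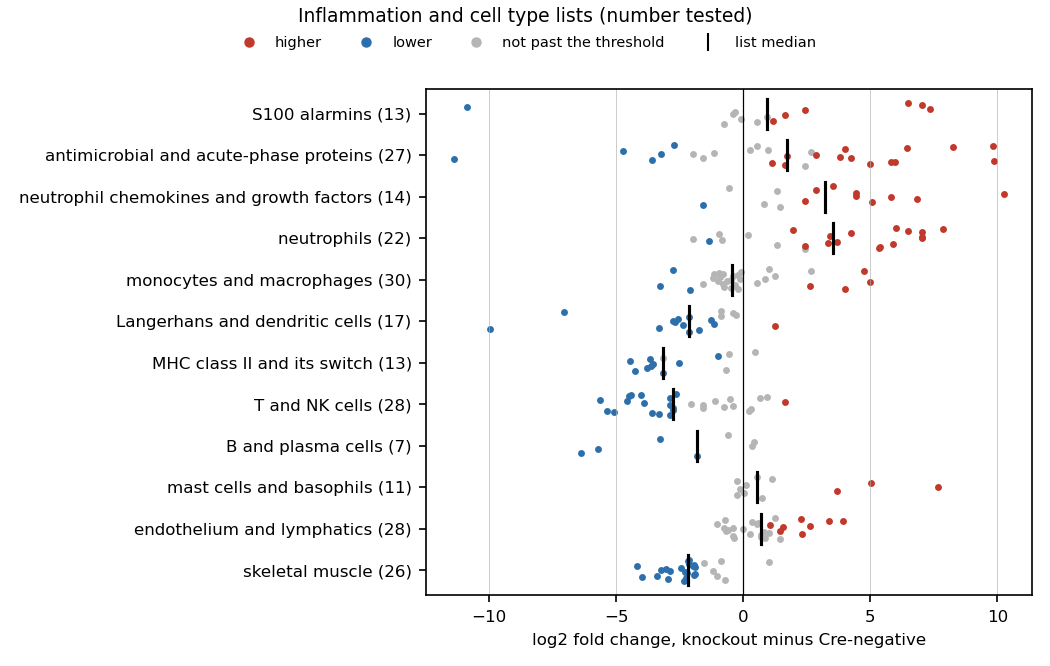
Log2 fold change of each tested member of 12 inflammation and cell type lists, with the number tested in brackets, 1 point per gene (red higher, blue lower, grey not past the threshold) and a black bar at the list median. Most neutrophil genes and chemokines lie to the right, most MHC class II, T and NK cell and skeletal muscle genes to the left, and macrophage genes on both sides of 0.

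Macrophage genes had few calls, 4 higher and 3 lower of 30. Spp1, osteopontin, was at 62.7, 12.3 and 24.6 against 1.57, 0.657 and 1.38 CPM (4.77 ± 0.65). Ccr2, the receptor of inflammatory monocytes, was at 5.09, 11 and 7.64 against 46.5, 65.2 and 122 CPM (-3.28 ± 0.52). Arg1 was at 1275, 188 and 382 against 43.4, 42.8 and 29.7 CPM (3.99 ± 0.67, not called in the female libraries alone). Ccl3 and Ccl4 rose, Ccl4 to 17.8, 6.99 and 22.4 from 0.0559, 0.0547 and 1.17 CPM (5.32 ± 0.79). Ccl27a, a T cell chemokine of keratinocytes, fell to 3.57, 4.76 and 2.28 from 68.4, 63.4 and 121 CPM (-4.60 ± 0.45). Retnla, resistin-like alpha, fell from 58.3, 78.9 and 231 to 1.27, 0.194 and 1.18 CPM (-7.11 ± 0.68). Mast cell genes had 3 higher of 11, while the tryptase Tpsb2 (0.53 ± 0.40) and the carboxypeptidase Cpa3 (-0.24 ± 0.43) did not pass.

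Genes of the dermis moved in both directions. Of 35 fibroblast and matrix genes 7 were higher and 10 lower (median -0.30), with Dpt, dermatopontin (-1.75 ± 0.34), and Col14a1 (-2.51 ± 0.39) lower and Fbln1, fibulin 1, higher (16.8, 15.2 and 22 against 5.81, 2.74 and 3.86 CPM, 2.13 ± 0.33). Col1a1 stood at -1.29 ± 0.51 (adjusted p = 0.069). Matrix proteases and inhibitors were higher in 11 of 27 with 2 lower. Mmp13, a collagenase, was at 18.3, 17.1 and 23.6 against 0.447, 0.109 and 0.729 CPM (5.55 ± 0.62). Mmp3, a stromelysin, was at 62.2, 142 and 37.8 against 6.88, 4.6 and 5.39 CPM (3.84 ± 0.59) and Adamts4 rose by 4.72 ± 0.69. Of 28 endothelial genes 8 were higher and none of them lower (median 0.71). Tie1 was at 1.78, 3.59 and 3.19 against 0.839, 0.711 and 0.219 CPM (2.27 ± 0.46). Selp, P-selectin, which lets leukocytes roll, was at 1.78, 11.5 and 4.65 against 0.503, 0.711 and 0.51 CPM (3.39 ± 0.65, not called with a sex term). Procr, the protein C receptor, is not in the endothelial list. It was at 887, 1103 and 662 against 8.95, 5.85 and 8.09 CPM (6.86 ± 0.76), with 5.62 and 64.7 CPM in the wild-type libraries. Which cells of the skin gave the Procr reads was not tested.

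Skeletal muscle and fat genes were lower. Of 26 skeletal muscle genes 20 were lower and none of them higher (median -2.16), with 5 called under a sex term. Casq1 was at 13.2, 12.5 and 7.75 against 267, 133 and 123 CPM (-3.98 ± 0.52). Pvalb, parvalbumin, was at 55.3, 24.1 and 29.9 against 1215, 315 and 455 CPM (-4.19 ± 0.64). Of 19 adipocyte genes 8 were lower and none of them higher (median -1.34), Plin1, of the lipid droplet, at 1.53, 4.95 and 3.92 against 28.8, 14.9 and 23.8 CPM (-2.62 ± 0.45). The site and depth of each sample are not given in the labels. Positional genes, which differ between skin regions, had 1 higher and 9 lower of 28, with Hoxb3 at 2.8, 3.2 and 2.56 against 19, 17.8 and 16.1 CPM (-2.63 ± 0.41). The part of sampling site or depth in these lists was not tested.

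Outside the lists, large rises and falls were found in genes of varied kinds. Mal, a membrane protein of apical transport, was at 237, 243 and 149 against 1.57, 0.93 and 1.6 CPM (7.26 ± 0.51). Tubb3, a tubulin of neurons, was at 540, 386 and 345 against 1.9, 2.08 and 2.4 CPM (7.64 ± 0.96). Tekt5 was at 102, 68.7 and 50.3 against 0.615, 0.766 and 0.874 CPM (6.61 ± 0.52). Tubb3 also differed between the wild-type libraries, at 2.21 and 46 CPM. Cemip, a hyaluronidase (6.44 ± 0.56), Igf2bp1, an RNA-binding protein of embryonic tissue (6.57 ± 0.71), and Steap1, a metalloreductase (7.23 ± 0.70), rose as well. On the other side Tesc, tescalcin, fell from 148, 89.2 and 67.8 to 0.764, 0.776 and 0.423 CPM (-7.42 ± 0.46), Fcgbp from 69.8, 108 and 106 to 0.509, 0.582 and 0.141 CPM (-8.20 ± 0.69) and Bbox1, the last enzyme of carnitine synthesis, from 31.1, 41.9 and 61 to 0, 0.388 and 0.141 CPM (-7.81 ± 0.87). Dab1 had 2 counts against 608, a ratio of 303 (95% interval 83.9 to 2501).

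Measured by reads rather than by ratio, S100a8, Krt6a, Krt14 and Sfn gained most mean CPM. Sfn, 14-3-3 sigma, was at 19294, 6718 and 12616 against 1190, 1138 and 1041 CPM (3.52 ± 0.55, not called in the female libraries alone). Tuba1c, a tubulin, was at 8737, 3192 and 3836 against 646, 614 and 590 CPM (3.09 ± 0.53, likewise). S100a6 was at 17487, 6888 and 5915 against 1945, 1930 and 1725 CPM (2.44 ± 0.50, not called with a sex term). Eif2s2, a translation factor subunit, was at 15543, 5325 and 4404 against 2683, 2258 and 1958 CPM (1.87 ± 0.48), a call that ended with a sex term and without knockout replicate 1. The largest losses of mean CPM were in the keratins Krt77 and Krt10 and the muscle genes Acta1 and Tnnc2. The calls of both muscle genes ended with a sex term, and that of Tnnc2 also without knockout replicate 2 or 3 or Cre-negative replicate 1. Together the 2243 higher genes averaged 388356 CPM in knockout and 95790 CPM in Cre-negative libraries, and the 2509 lower genes 31615 and 140121 CPM. Under this scaling all 16027 tested genes summed to a mean of 1110980 CPM in knockout and 832962 CPM in Cre-negative libraries.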

How the data were processed

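Skin RNA was read as 3′ tags (QuantSeq FWD, per the labels' protocols). The authors deposited raw counts per gene for all 14 libraries, and the submitters' processing notes name STAR, featureCounts, DESeq2 and the builds GRCm38 and GRCm39. The file's coordinates are GRCm39. No source used here states the strand setting or how reads with several matches were counted. Levels are not compared between genes, because each transcript gives 1 tag and gene models differ.

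Counts were tested in R 4.3.3 with edgeR 4.0.16: filterByExpr, TMM scaling, 6 group means over all 14 libraries, the quasi-likelihood test of knockout minus Cre-negative, and Benjamini-Hochberg adjustment over 16027 genes at 0.05. An error after ± is the standard error of the log2 fold change. All adjusted p-values come from this test unless limma 3.58.1 (voom) or DESeq2 1.42.0 is named. With 0 counts in a group, a fold is a bound against 3 counts over the group, and with 1 to 3 counts a ratio with its exact 95% Poisson interval. Intervals cover counting error only, since no molecular identifiers are described. Scripts were tested on simulated data, where 10.4% of 2-fold, 89.6% of 4-fold and 100% of 16-fold changes were recovered, with 3 false calls. A gene that did not pass may therefore still differ by 2-fold. In the simulation 67, 67 and 66 of 15392 genes were changed by these folds, a far smaller share than the 29.6% called here. It held no difference in sex or library quality, so its recovery and false calls need not hold for these data.

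Genes named were the starred members and up to 6 members with the smallest p of each of 81 lists, the 12 highest and 12 lowest fold changes overall and outside the lists (groups apart, at least 10 CPM), and the 12 largest gains and losses of mean CPM. Genes outside that rule are said to be chosen after their values were seen. Members and lists were chosen with earlier results of these data known. Alternatives were other tools, scalings and filters, the 2 groups alone, a replicate block, a sex term, only the female libraries of the 2 groups, and leaving out each library. Deviations of same-numbered libraries from their group means correlated at 0.26, 0.102 and 0.166, and those of knockout 3 and Cre-negative 2 at 0.104. The labels do not say what a number marks; the test above has no block, and the block is an alternative. Sex was read from Xist and Y-linked genes. No 2 libraries were duplicates within sampling noise. Promoters are RefSeq, GRCm38.p6.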

Additional observations from a re-analysis of the deposited data

How the results depend on the processing

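Voom called 3370 genes higher and 3927 lower, library size alone 1183 higher, the sex term 505 higher and 943 lower, and the female libraries alone 329 higher and 650 lower. The last fit has 1 Cre-negative DMSO library, which is assumed to vary like the other groups. Male libraries of the groups not compared stayed in that fit and share in its estimate of the spread. The sex term rests on the same Cre-negative DMSO library. Leaving out 1 library gave 1386 to 2027 higher genes, the lowest without Cre-negative replicate 2 (1451 without Cre-negative replicate 1), and 1587 to 2267 lower genes, the lowest without knockout replicate 3. The other settings stayed within 1.5 times of both counts. The replicate block gave 2390 higher and 2781 lower genes among 14045 tested. Among named genes it ended 2 calls, Lcn2 and Igha (-1.90, adjusted p = 0.065), added 23 and ended no other call. The Nedd8 fold change was -0.59 with the block (adjusted p = 0.16), -0.84 with voom and -0.95 with library size alone, both past the threshold, and -1.04 to -0.24 when 1 library was left out. Of 547 named genes 473 were called, and 255 of these were called in every setting that tested them. The sex term ended 158 of the calls and the female libraries alone 210. Krt25 changed sign, to 3.05 with the sex term and 3.01 in the female libraries alone, and the cause was not tested. The shallowest library, knockout replicate 1 with 5552954 counts, limits what can be seen of genes with few reads.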
